A study of Solanum lycopersicum var. cerasiforme with 6 samples.

Results

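Stem cells at the tips of tomato inflorescence and floral meristems are kept at a steady number by a feedback loop. WUS, a homeodomain transcription factor made beneath the stem cells, maintains them and promotes CLV3, and CLV3, a small peptide that the stem cells secrete, acts through receptors such as CLV1 and CLV2 to limit WUS. In tomato, weakening the loop enlarges the meristem and gives flowers and fruits more organs and locules, and known alleles for large fruit lie at WUS and at CLV3. The genes described here are 8 of 34081 rows of the count files, chosen by identifier: WUS (Solyc02g083950), CLV3 (Solyc11g071380), CLE9 (Solyc06g074060), CLV1 (Solyc04g081590), CLV2 (Solyc04g056640), the arabinosyltransferases FIN (Solyc11g064850) and RRA3a (Solyc04g080080), and ENO (Solyc03g117230). Each had a single row.

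RNA came from young inflorescences of F3 tomato plants (Solanum lycopersicum var. cerasiforme) that segregated for fw2.3, a fruit weight locus, taken while the largest bud was below 2 mm. The plants carried the derived allele, fw2.3-D, or the wild-type allele, fw2.3-WT, and grew unpruned in a greenhouse in random positions. Each library pooled equal RNA of 2 plants, with 3 pools per genotype. The tissue is a whole inflorescence, in which stem cells are a small part, so fewer stem cells and less RNA per cell cannot be told apart.

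The pools held 22303511 to 28504360 counts. Among them fw2.3-D replicate 1 and fw2.3-WT replicate 1, called the first pools below, were the most alike of the 15 pairs (chi-square per gene 13.5, against 18.0 to 52.9 for the others). All 6 loci listed as shoot and inflorescence meristem markers had counts in every pool, at mean levels of 2.01 to 107 CPM (counts scaled to the library size with TMM factors). Their sum ran between 290 and 333 CPM in fw2.3-D pools, against 332 to 342 CPM in fw2.3-WT pools. The 6 floral organ identity loci summed to 405 to 533 CPM in fw2.3-D pools, against 408 to 462 CPM in fw2.3-WT pools, with none at 0 in any pool. The 3 leaf rubisco loci, which mark green tissue, summed to 1930 to 2680 CPM in fw2.3-D pools, against 1930 to 2510 CPM in fw2.3-WT pools. In the edgeR fit, 5 meristem loci were lower and 1 was higher in fw2.3-D (median log2 fold change over fw2.3-WT -0.12). Of the floral organ loci 5 were higher and 1 was lower (median 0.06), and all 3 rubisco loci were higher (median 0.09). The median over all tested rows was 0.001. None of these loci had an unadjusted edgeR p under 0.05, against 3.56% of all tested rows. Identifiers in these lists were written from memory of published assignments, and the part of tissue make-up in the values below was not tested.

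The enzymes and receptors of the pathway were present at moderate levels in the young inflorescence, while the peptide CLV3 and the transcription factors WUS and ENO were near the low end of the tested genes. Levels between genes are given as FPKM, which are CPM divided by gene length in kilobases. RRA3a averaged 23.5 ± 2.85 FPKM (SD over 6 pools) and FIN 23.4 ± 1.64 FPKM. Each was above 69.0% of the 20936 tested rows that have a deposited RPKM, the rows used for these shares. CLV1 followed at 19.6 ± 4.86 FPKM and CLV2 at 10.2 ± 1.00 FPKM, above 63.0% and 42.6% of tested rows. CLV3 stood at 2.92 ± 1.53 FPKM, WUS at 1.80 ± 0.301 FPKM and ENO at 1.65 ± 0.66 FPKM, above 17.2%, 12.0% and 11.2% of tested rows. CLE9 was last, at 0.173 ± 0.15 FPKM.

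In this order, 3 steps were clear of the spread between pools: CLV1 over CLV2 (1.91-fold), CLV2 over CLV3 (3.51-fold) and ENO over CLE9 (9.49-fold). The ranges of RRA3a, FIN and CLV1 over the pools overlapped, and so did those of CLV3, WUS and ENO. CLV3 was above WUS in 5 of 6 pools. These levels rest on gene lengths of 282 bases for CLV3 and 267 for CLE9. The lengths were 759 bases for ENO, 1006 for WUS and 2241 for CLV2. The spread between pools does not cover error from gene length, and the effect of short length on the order was not tested. With the authors' RPKM in place of FPKM, the same number of steps, 3, was clear of the spread.

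**Figure D1:**
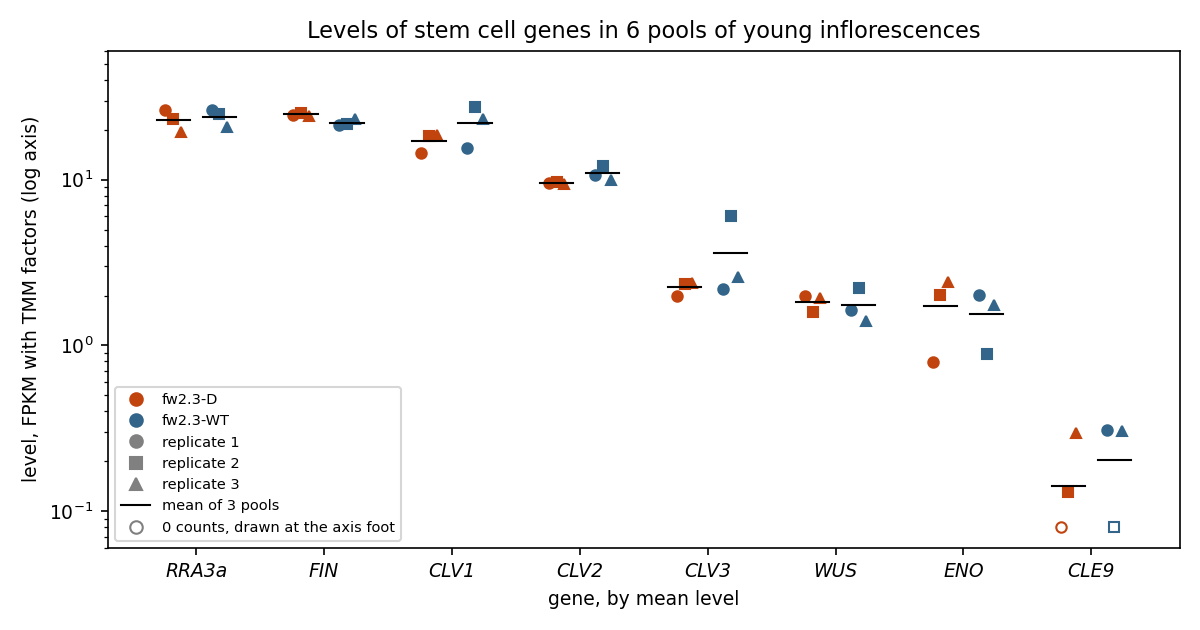
Level of each gene in each pool (vertical axis, FPKM with TMM factors, log axis), with fw2.3-D left of fw2.3-WT, replicate numbers as symbols and the mean of 3 pools as a bar. RRA3a, FIN and CLV1 lie between 14.5 and 27.3 FPKM, CLV3, WUS and ENO between 0.792 and 6.02 FPKM, and CLE9 at or below 0.31 FPKM.

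None of the stem cell genes passed the test between the genotypes. Of the 8 genes, 7 had enough counts for the edgeR quasi-likelihood fit, and 0 of 7 were called at an adjusted p under 0.05, where 5 of the 20942 tested rows (0.0239%) were called. At an unadjusted p under 0.05 the count was also 0 of 7, against 3.56% of all tested rows, and it was 1, CLV1, in 3 of the 14 alternatives. Without fw2.3-WT replicate 1, 1241 of 21292 tested rows had such a p (edgeR). Under the replicate block 903 of 20942 rows had it, and with both first pools left out 871 of 21034 (edgeR). DESeq2 and limma called 0 of 7 as well. Of the 7, 3 had higher and 4 had lower fitted values in fw2.3-D. The log2 fold change, here fw2.3-D over fw2.3-WT throughout, had a median of -0.06 and a median size of 0.166, beside 0.001 and 0.14 over all tested rows. In 2 of 7 genes, CLV2 and FIN, the ranges of the genotypes were separate, as they were in 9.49% of tested rows. The exact permutation test for 3 pools against 3 cannot give a p below 0.10, and those 2 genes reached that value.

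**Figure D2:**
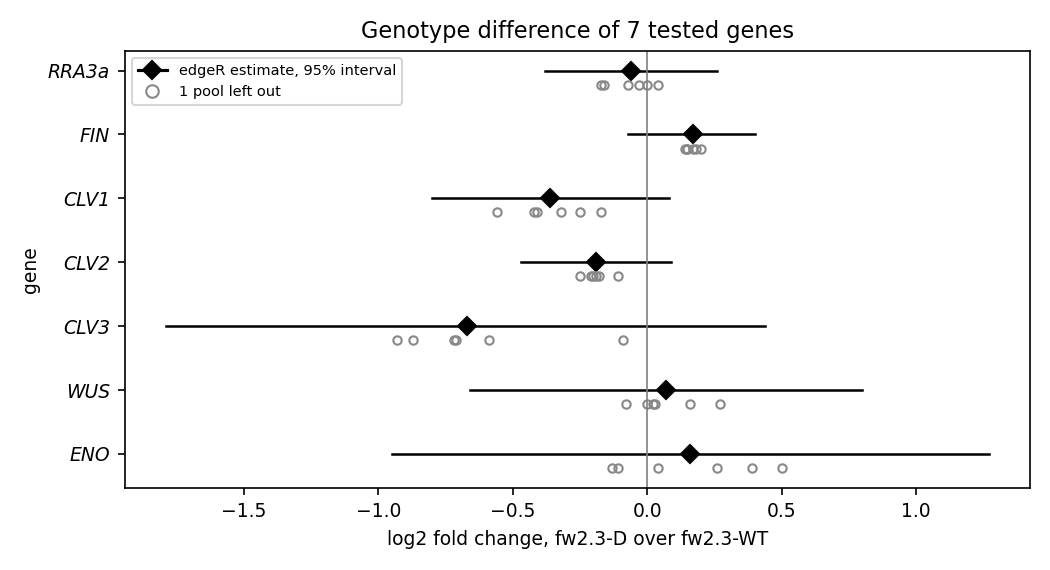
Log2 fold change, fw2.3-D over fw2.3-WT (horizontal axis), for the 7 tested genes (vertical axis), as the edgeR estimate with its 95% interval and, in open circles, the estimate with each pool left out. All 7 intervals include 0, from FIN at -0.07 to 0.40 to CLV3 at -1.79 to 0.44.

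WUS, the homeodomain regulator that maintains the stem cells, lies on chromosome 2, the chromosome for which fw2.3 is named. It was counted 50, 46 and 49 times in the fw2.3-D pools, against 40, 50 and 35 times in the fw2.3-WT pools. Scaled, this was 2.00, 1.60 and 1.94 CPM in fw2.3-D, against 1.65, 2.23 and 1.41 CPM in fw2.3-WT. The highest and the lowest pool both carried fw2.3-WT, and the fw2.3-D pools lay between them. Mean WUS was 1.85 ± 0.216 CPM in fw2.3-D pools, against 1.77 ± 0.422 CPM in fw2.3-WT pools (SD, n = 3 each). The fitted log2 fold change, 0.07 with an SE of 0.326, did not pass (edgeR adjusted p = 0.985). The 95% interval, 0.632-fold to 1.74-fold, bounds the difference that these pools allow. At such counts counting alone gives a coefficient of variation of 14.4% in fw2.3-D and 15.5% in fw2.3-WT, against measured values of 11.7% and 23.9%.

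CLV3, the secreted peptide of the stem cells, varied most among the fw2.3-WT pools. It had 14, 19 and 17 counts in fw2.3-D, against 15, 38 and 18 in fw2.3-WT. Scaled, these were 0.561, 0.662 and 0.675 CPM in fw2.3-D, against 0.620, 1.70 and 0.727 CPM in fw2.3-WT. A single pool, fw2.3-WT replicate 2, was above the rest, and the other 5 lay within the counting error of each other. The exact Poisson 95% interval of its 38 counts, before scaling, was 26.9 to 52.2, and the other intervals had upper ends of 23.5 to 29.7. Some of these raw intervals overlapped, but fw2.3-WT replicate 2 was the smallest library, with 22303511 counts. Scaled to CPM, its interval lay above those of the other pools, which covers counting error only. Within fw2.3-D the coefficient of variation was 9.85%, under the 24.5% that counting alone gives, and within fw2.3-WT it was 58.5%, against 20.6% from counting. Its fitted log2 fold change was -0.67, with an SE of 0.499 (edgeR adjusted p = 0.948) and an interval of 0.29-fold to 1.36-fold. Without fw2.3-WT replicate 2 the estimate shrank to -0.09, with an SE of 0.488 (edgeR adjusted p = 1). In the RefSeq gene table of the assembly SLM_r2.1, CLV3 overlaps another protein-coding gene, LOC101256843, and since the libraries kept no strand, reads of the pair in the overlap cannot be separated.

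CLE9, a close relative of CLV3 whose peptide can take over part of its role in tomato when CLV3 is lost, was close to undetected. It had 0, 1 and 2 counts in fw2.3-D, against 2, 0 and 2 in fw2.3-WT, 3 against 4 in all. A count of 0 has an exact Poisson 95% interval that reaches 3.69 counts. The floor used here, 3 counts, is somewhat lower and equals 0.45 FPKM in fw2.3-D replicate 1 and 0.502 FPKM in fw2.3-WT replicate 2. The gene was left out of the fit by the filter on low counts. No genotype difference was seen (exact permutation test, two-sided, p = 0.6), and at 0 to 2 counts per pool a small one is not detectable. Without a filter the edgeR fit took in all 8 genes, with a lowest adjusted p of 0.919. Over all pools CLV3 had 121 counts and CLE9 had 7, a ratio of 16.4 per kilobase, with an exact binomial 95% interval of 7.71 to 41.6 that covers counting error only.

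CLV1, the receptor kinase that binds the CLV3 peptide, had the lowest p of the 7 before adjustment (0.0985 in the edgeR fit). It had 48.0, 60.8 and 61.5 CPM in the fw2.3-D pools, against 51.2, 90.4 and 76.8 CPM in the fw2.3-WT pools. The first pool of each genotype was its lowest, and the other fw2.3-WT pools were above every fw2.3-D pool. Mean CLV1 was 56.7 ± 7.58 CPM in fw2.3-D pools, against 72.8 ± 19.9 CPM in fw2.3-WT pools (SD, n = 3 each). The fit gave a log2 difference of -0.36 with an SE of 0.197, which did not pass (edgeR adjusted p = 0.948). Leaving out both first pools gave -0.46 with an SE of 0.162, and a p of 0.0178 before and 0.91 after adjustment in edgeR. It was -0.56 without fw2.3-WT replicate 1, with a p of 0.00495 before and 0.778 after adjustment, and -0.33 under the replicate block, with a p of 0.034 before and 0.895 after adjustment (edgeR). Without fw2.3-WT replicate 2 it was -0.17. With 4491 counts in fw2.3-D and 5162 in fw2.3-WT, counting gives a coefficient of variation of 2.58% in fw2.3-D and 2.41% in fw2.3-WT, far under the measured 13.4% and 27.4%.

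CLV2, a receptor-like protein with no kinase domain of its own, was lower in every fw2.3-D pool than in any fw2.3-WT pool, but the difference did not pass the test. It had 21.5, 21.7 and 21.2 CPM in fw2.3-D, against 23.9, 27.1 and 22.4 CPM in fw2.3-WT. The fw2.3-D pools were almost alike, with a coefficient of variation of 1.21%, against 9.86% in fw2.3-WT. Counting alone gives 4.21% in fw2.3-D and 4.15% in fw2.3-WT, so the fw2.3-D pools were closer together than counting error leads to. The fitted log2 difference of -0.19 had an SE of 0.125 (edgeR adjusted p = 0.948) and an interval of 0.724-fold to 1.06-fold. Without fw2.3-WT replicate 2 it was -0.11. The pools stayed apart in the authors' RPKM.

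A list of 4 further loci, written from memory as receptors of the BAM type related to CLV1, is given as a group, and its identity is uncertain. The RefSeq table has 1 entry with the symbol BAM1, a symbol also used for beta-amylases, and it lies on chromosome 9, where 0 of the 4 loci lie. None of the 4 was called, against 0.0239% of tested rows, 1 had an unadjusted p under 0.05, against 3.56% of tested rows, and 4 of 4 had lower fitted values in fw2.3-D. Their log2 differences lay between -0.32 and -0.13 (median -0.18, beside 0.001 over all tested rows). Their sum ran between 429 and 474 CPM in fw2.3-D pools, against 489 to 622 CPM in fw2.3-WT pools, without overlap, as in 9.49% of single tested rows.

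FIN and RRA3a are glycosyltransferases that add arabinose to peptides of the CLV3 kind, and loss of FIN gives tomato fasciated, much branched inflorescences. FIN had 41.8, 43.0 and 41.0 CPM in fw2.3-D, against 36.1, 36.8 and 39.2 CPM in fw2.3-WT. All fw2.3-D pools were above all fw2.3-WT pools on this scale, while in the authors' RPKM, which carry no TMM factors, the genotypes overlapped. Mean FIN was 41.9 ± 0.984 CPM in fw2.3-D pools, against 37.4 ± 1.63 CPM in fw2.3-WT pools (SD, n = 3 each). The log2 difference, 0.17 with an SE of 0.104, did not pass (edgeR adjusted p = 0.948). FIN was the most tightly measured of the 7 genes, and its interval, 0.955-fold to 1.32-fold, was the narrowest.

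RRA3a had 48.9, 43.0 and 36.3 CPM in fw2.3-D, against 48.7, 46.5 and 38.7 CPM in fw2.3-WT. The ranges of the genotypes overlapped almost fully, and the third pool was the lowest in each. Its log2 difference was -0.06, with an SE of 0.143 (edgeR adjusted p = 0.967) and an interval of 0.767-fold to 1.19-fold.

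ENO, an AP2/ERF transcription factor whose loss gives tomato flowers extra organs and a wider domain of WUS expression, had uneven pools in both genotypes. It had 15, 44 and 46 counts in fw2.3-D, against 37, 15 and 33 in fw2.3-WT, and as levels 0.792, 2.02 and 2.40 FPKM in fw2.3-D, against 2.02, 0.883 and 1.76 FPKM in fw2.3-WT. Each genotype had a low pool, replicate 1 in fw2.3-D and replicate 2 in fw2.3-WT, whose 15 counts have an exact Poisson 95% interval of 8.40 to 24.7. The highest pool was 3.04 times the lowest in fw2.3-D and 2.28 times the lowest in fw2.3-WT. The coefficient of variation was 48.5% in fw2.3-D and 38.3% in fw2.3-WT, where counting gives 16.9% and 18.8%. The log2 difference of 0.16 had an SE of 0.498 (edgeR adjusted p = 0.974) and an interval of 0.517-fold to 2.42-fold. Leaving out fw2.3-D replicate 1 gave 0.50, leaving out fw2.3-D replicate 3 gave -0.13 and leaving out fw2.3-WT replicate 2 gave -0.11, so its direction changed with the pools used. With both first pools left out it was 0.73, with an SE of 0.558 (edgeR adjusted p = 0.91).

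Across genes, 2 pools held the most extremes, 4 of the 7 tested genes each. WUS, CLV3, CLV1 and CLV2 were highest in fw2.3-WT replicate 2, where 23.8% of all tested rows were highest. In that pool CLV3 lay 1.16 above its mean over 6 pools on the log2 scale, CLV1 0.52, WUS 0.32 and CLV2 0.24 above theirs, and ENO deviated by -0.78. fw2.3-D replicate 1 was lowest for 3 genes, CLV3, CLV1 and ENO, where 18.4% of tested rows were lowest, and highest for RRA3a, where 18.9% were highest.

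**Figure D3:**
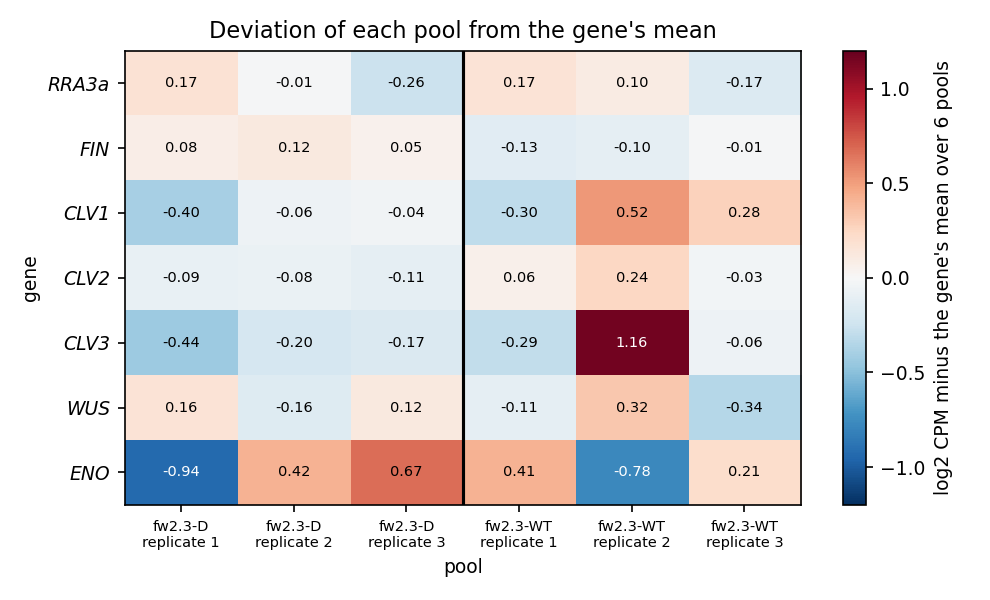
Deviation of each pool (columns) from the mean log2 CPM of the gene over 6 pools, for the 7 tested genes (rows), with fw2.3-D left of the line and fw2.3-WT right of it. CLV3 in fw2.3-WT replicate 2, at 1.16, and ENO in fw2.3-D replicate 1, at -0.94, stand farthest from 0.

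The levels of CLV3 and CLV1, the ligand and its receptor, went together across the pools. Their log2 CPM had the same order in all 6 pools, with a Pearson's r of 0.85 (exact permutation p = 0.00139, adjusted p = 0.0292 over 21 pairs of genes) and a Spearman's rho of 1 (exact permutation p = 0.00278, adjusted p = 0.0584). Both p-values before adjustment are the smallest that permuting 6 pools can give. Pearson's r passed the adjustment and rho did not. Without the 2 pools farthest from the median of CLV3, fw2.3-WT replicate 2 and fw2.3-D replicate 1, r was 0.99, and with both first pools left out it was 0.87 in 4 pools. Each genotype has too few pools for a value of its own. The 5 lower pools of CLV3 differ by less than their counting error, and of the 20941 other tested rows 3.51% had an r with CLV3 at least as high and 131 (0.626%) had a rho of 1, so many other rows of these libraries followed CLV3 as closely.

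Of the other 20 pairs, none passed the adjustment. CLV3 and CLV2 had the highest r of all 21 pairs, 0.87 (exact permutation p = 0.0861, adjusted p = 0.603), with a rho of 0.43 (exact permutation p = 0.419). That r rested on the outlying pools: it was -0.48 without the 2 farthest, fw2.3-WT replicate 2 and fw2.3-D replicate 1. CLV2 and FIN had an r of -0.81 (exact permutation p = 0.0319, adjusted p = 0.335) and a rho of -0.71 (exact permutation p = 0.136), and r was -0.59 without the 2 farthest pools. WUS and CLV3, the pair of the feedback loop, had an r of 0.52 (exact permutation p = 0.317, adjusted p = 0.665) and a rho of 0.03 (exact permutation p = 1), and r was -0.41 without the 2 farthest pools. WUS and ENO had an r of -0.61 (exact permutation p = 0.246, adjusted p = 0.665), a rho of -0.43 (exact permutation p = 0.419), and an r of -0.53 without the 2 farthest pools.

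RNA levels of WUS and CLV3 were also compared within each pool, as the ratio of WUS to CLV3 per kilobase, which needs no scaling between pools. The ratio uses the counts given above, so it is not a separate result, and the activity of the loop was not measured. It depends on the gene lengths used. The ratio was 1.00, 0.679 and 0.808 in fw2.3-D, against 0.748, 0.369 and 0.545 in fw2.3-WT. The fw2.3-WT pools reached lower, and fw2.3-WT replicate 1 lay among the fw2.3-D pools. Counting error was wide: the exact binomial 95% interval ran from 0.545 to 1.96 in fw2.3-D replicate 1, and from 0.237 to 0.578 in fw2.3-WT replicate 2, so that even the highest and the lowest pool had overlapping intervals. The mean log2 ratio was -0.29 ± 0.281 in fw2.3-D and -0.91 ± 0.511 in fw2.3-WT (SD, n = 3 each), a difference of 0.62 (exact permutation test, two-sided, p = 0.2). Without fw2.3-WT replicate 2 the difference was 0.36.

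**Figure D4:**
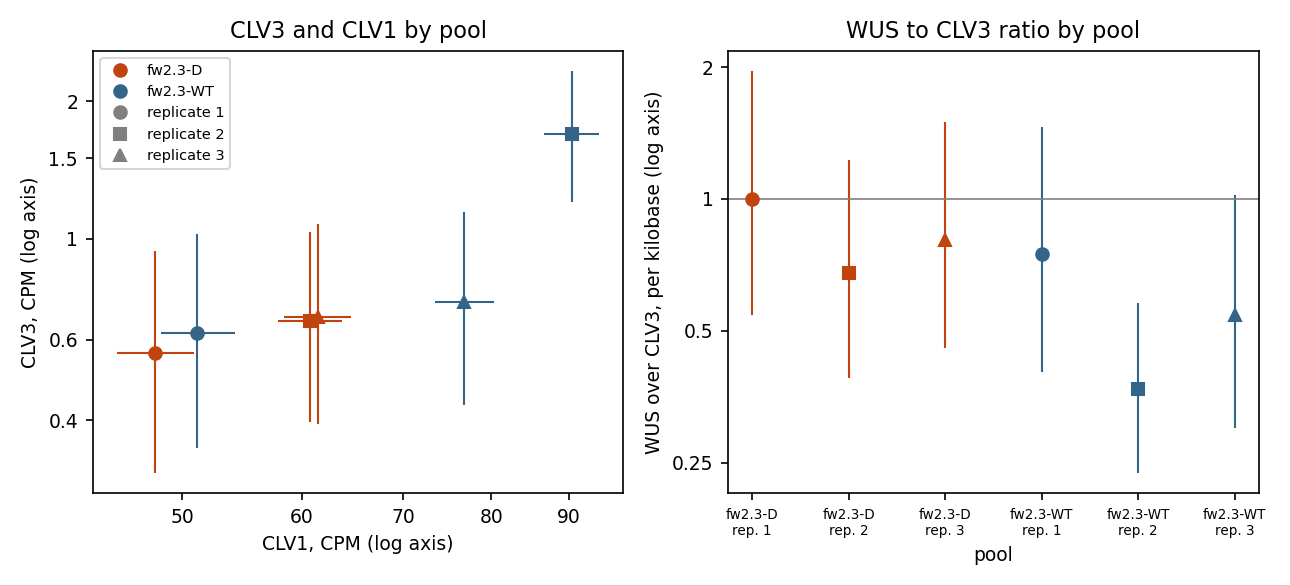
Left, CLV3 against CLV1 in each pool (CPM, log axes) with exact Poisson 95% intervals. Right, the ratio of WUS to CLV3 per kilobase in each pool (log axis) with exact binomial 95% intervals. fw2.3-WT replicate 2 has the highest CLV3 and CLV1 and the lowest ratio, 0.369.

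The rows most like WUS and CLV3 across the 6 pools were found by the root mean square difference of log2 CPM, each centred on its own mean, among rows with at least 1 CPM. For WUS these were Solyc03g083360.3 (0.0567) and Solyc03g113270.3 (0.0575), where the median row stood at 0.299. For CLV3 they were Solyc02g080580.1 (0.145) and Solyc07g041070.3 (0.158), where the median row stood at 0.57 and CLV1 at 0.309. Solyc02g080580.1 had 1.88, 1.95 and 2.22 CPM in fw2.3-D, against 2.36, 6.48 and 2.83 CPM in fw2.3-WT, with the same high pool as CLV3. None of these 4 rows was called between the genotypes. The rows were chosen for likeness over the same pools, so a shared high pool and the lack of a call are not separate results. At the counts of WUS and CLV3, counting alone gives a coefficient of variation of 14.4% to 24.5% within a genotype. The patterns matched therefore include counting error.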

How the data were processed

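RNA-seq libraries of 6 pools, 3 fw2.3-D and 3 fw2.3-WT, were analysed. The authors deposited raw read counts in 34081 gene rows, and a table of RPKM (reads scaled to gene length and library total) with SL4.0 in its name. The submitters' processing notes list Cutadapt, STAR and edgeR but give no role or version. The program that counted reads is not given in the sources used here. Gene lengths for FPKM were those implied by the deposited RPKM and counts, equal across pools within 0.015 base for the 8 genes. Of these lengths 6 of 8 are multiples of 3, against 45.7% of all rows, so which parts of a gene were counted is not known.

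Counts were tested on the whole table with edgeR 4.0.16 in R 4.3.3 (glmQLFit, glmQLFTest, two-sided, TMM factors, filterByExpr at 10 counts, genotype as the single term), with Benjamini-Hochberg adjustment over 20942 rows. SE is the log2 fold change over the square root of F, and intervals are 95%. Alternatives were DESeq2 1.42.0, limma 3.58.1 on log2(RPKM + 1) and log2(RPKM + 0.1), RLE factors, other filters, the replicate block, each pool left out and the first pools left out. Poisson and binomial intervals and floors of 3 counts cover counting error only.

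The genes and lists were chosen with earlier results of these data known. All 8 genes are named, with the 2 rows most like WUS and like CLV3. Gene names follow the choice of members. By identifier, 0 of 34081 matched the RefSeq table, and by symbol 6 of 8 did, all 6 on the chromosome of the identifier. The p-values set a difference against the spread between these pools and take the pools as independent. Nothing says that plants of different pools are unrelated, and if they are related the p-values may not hold.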

Additional observations from a re-analysis of the deposited data

How the results depend on the processing

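The count of stem cell genes called was 0 under all 14 alternatives, with a lowest adjusted p of 0.681 (edgeR, without fw2.3-D replicate 3). The count over all genes, 5, was 48 under DESeq2, 21 with both first pools left out, 13 when unfiltered and 10 under the replicate block. It was 0 by limma for either RPKM pseudocount, 1 and 0.1 (774 and 746 genes then had a p below 0.05 before adjustment), and between 0 and 18 with single pools left out. The cause was not tested. The labels do not say what pools with the same replicate number share. The deviations from the group means correlated at 0.411 within number 1, whose pools were also the most alike pair. They correlated at -0.14 and 0.081 within the numbers 2 and 3, and the best match carried the same number for 2 of 6 pools. Of 97 fold changes under alternatives, 91 kept their sign and 6 did not, all in uncalled genes near 0. Leaving out single pools moved WUS between -0.08 and 0.27, RRA3a between -0.17 and 0.04 and ENO between -0.13 and 0.50, and with both first pools left out WUS was -0.04 and ENO 0.73. CLV3 had too few counts for a filter of 1 CPM in 3 pools. The difference in the WUS to CLV3 ratio lay between 0.36 and 0.87 in such fits and kept its sign. Pearson's r of CLV3 and CLV1, with alternatives chosen after seeing the data, lay between 0.84 and 0.96. Outside these alternatives, r was 0.99 without the 2 pools farthest from the median of CLV3. Depth limits CLE9, CLV3, WUS and ENO most: a floor of 3 counts is 0.105 to 0.134 CPM.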
